A study of Mus musculus with 13 samples.

Results

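MHC class I antigen presentation was followed through 10 genes, which are the rows of the count table whose symbols are H2-K1, H2-D1, B2m, Tap1, Tap2, Tapbp, Psmb8, Psmb9, Psmb10 and Nlrc5. All 10 were present among the 24421 gene rows, and all 10 passed the filter on low counts. The genes were chosen by name and role, with earlier results of these data known.

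RNA came from female FVB/N mice of the line TgN (MMTV-HER2/neu) 202Mul/J, in which a rat HER2/Neu transgene is driven by the mouse mammary tumor virus promoter and mammary tumors arise without further induction. The 13 libraries held 11 individual tumors and 2 cancer-free mammary glands (n = 2) of the same transgenic strain. Primary untreated tumors (n = 3) grew in mice on plain water. Primary stavudine tumors (n = 3) grew in mice given the reverse transcriptase inhibitor stavudine at 1 mg/mL in the drinking water from 2 months of age. Recurrent 17-DMAG tumors (n = 3) regrew after a complete response to 17-DMAG, an HSP90 inhibitor given at 20 mg/kg into the peritoneal cavity. By the paper's methods, dosing went on while tumors regrew, up to the end point size. Recurrence and current exposure to the drug therefore cannot be told apart. The group called recurrent 17-DMAG plus stavudine (n = 2) regrew under the same drug in mice that also drank stavudine at 1 mg/mL, begun either at 2 months of age or once primary tumors had appeared, and which of these start times applied to each tumor was not resolved here. Tumor age and the interval to regrowth were not used here.

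Class I molecules display peptides from inside the cell to CD8 T cells. The polymorphic heavy chains H2-K and H2-D pair with β2-microglobulin, the product of B2m, while TAP1 and TAP2 together pump cytosolic peptides into the endoplasmic reticulum and tapasin, the product of Tapbp, holds empty class I molecules next to that pump. Psmb8, Psmb9 and Psmb10 encode the catalytic subunits that replace their constitutive counterparts in the immunoproteasome, and NLRC5 is the transactivator that works at class I promoters. Interferon γ is a known inducer of most of these genes, and the pathway is lost or dampened in many cancers.

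In the RefSeq promoter windows of the GRCm38.p6 assembly, which run from 250 bases before to 50 bases after a start site, 8 of the 10 genes had an entry. The sequences of 4 class I genes are shown as background, since NLRC5 works through such elements. Their part in the levels described below was not tested. The search was for TGACG, then 20 bases of any kind, then ATTGG, which resemble an X2 box and an inverted Y box (CCAAT). The search was run on both strands and its letters were chosen after the sequences had been seen. Of 27025 genes with a window, 27 (0.0999%) held this arrangement, and H2-K1, H2-D1 and B2m were among them, as was the non-classical heavy chain gene H2-M3. The other 5 genes with a window held no match, which says only that these letters were not found there. Capitals mark TGACG and ATTGG.
H2-K1, chr17:34000359-34000388, minus strand: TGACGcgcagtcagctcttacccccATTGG
H2-D1, chr17:35262993-35263022, plus strand: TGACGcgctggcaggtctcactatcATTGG
B2m, chr2:122147609-122147638, plus strand: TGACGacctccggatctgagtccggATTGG
H2-M3, chr17:37270188-37270217, plus strand: TGACGcttctccaattcccattctaATTGG

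The H2-K1 and H2-D1 modules shared 13 of the 20 bases between the capitals, whereas H2-K1 and B2m shared 3 and H2-D1 and B2m shared 2. Counted from the RefSeq start, the match began at position -41 in H2-K1, -101 in H2-D1, -78 in B2m and -46 in H2-M3. The H2-D1 match lies upstream of the RefSeq start but inside the first exon of another annotated H2-D1 transcript.

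A longer stretch of the H2-K1 and B2m promoters shows which other elements lie nearby. Capitals mark, besides the letters above, a κB-like stretch (searched as GGG, 5 bases of any kind, CC, on both strands) and, in H2-K1, the core of an interferon response element (GAANNGAAA, here on the opposite strand).
H2-K1, chr17:34000354-34000462, minus strand: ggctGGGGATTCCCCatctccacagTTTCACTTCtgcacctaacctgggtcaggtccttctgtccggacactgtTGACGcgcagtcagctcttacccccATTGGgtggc
B2m, chr2:122147556-122147643, plus strand: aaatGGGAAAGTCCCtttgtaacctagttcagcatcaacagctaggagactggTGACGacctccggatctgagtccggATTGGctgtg

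GAANNGAAA was found in 8.68% of genes and, among the 8 class I genes with a window, in H2-K1 and H2-D1. The loose κB-like pattern was found in 53.5% of genes and in 5 of the 8, so its presence there is common. The reference is C57BL/6J, whereas the mice were FVB/N, so the printed bases are those of the reference and not of these animals.

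Of the 10 genes, 7 lie on chromosome 17 in the GRCm38 annotation. Tap1 (34187553 to 34197225), Psmb8 (34197721 to 34201454) and Tap2 (34203527 to 34216321) run in the same direction and Psmb9 (34181987 to 34187764) runs the opposite way, overlapping Tap1 by 212 bases. H2-K1 (33996017 to 34000347), Tapbp (33915899 to 33929292) and H2-D1 (35262730 to 35267499) flank them on either side. B2m is on chromosome 2 (122147686 to 122153083), and Psmb10 (105935735 to 105938444) and Nlrc5 (94434356 to 94527272) are on chromosome 8. The counting was not stated to use strand, so reads of partners on the opposite strand may be included in or lost from these counts. These partners are Tap1 and Psmb9 for each other, Patl2 for B2m, Gm20496 and Gm15821 for Tap2, Gm19412 for Tapbp, Gm20496 for Psmb8, Gm16156 for Psmb10 and 9330175E14Rik for Nlrc5. Zbtb22 overlaps Tapbp and Mir7072 overlaps Nlrc5 on the same strand, which makes those counts uncertain as well. H2-K1, H2-D1 and the H2-Q and H2-T genes are related genes, alike to different degrees, whose reads can be shared or dropped, so their levels are uncertain in a way that applies to every library.

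Depth ran from 39921388 to 56887708 counts per library, and the epithelial markers were high in every library (mean log2 CPM, the log2 of counts scaled to library size, 6.89 to 8.04 in the tumors, 7.68 and 7.89 in the glands). The glands were unlike each other. Gland 1 was rich in lymphocyte transcripts (mean log2 CPM of T cell markers 3.98, against -1.30 to 0.188 in the tumors), and milk protein genes took 37.7% of the counts of gland 2, against 0.49% to 2.47% in the tumors. Skeletal muscle markers summed to between 0.692 and 1571 CPM in tumors. In bulk tissue, fewer cells of a type and less RNA per cell cannot be told apart. Values below are CPM scaled by TMM factors, which differ from shares of the library total.

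The class I chains were the most abundant part of the pathway. Per kilobase of exon, the median over the 11 tumors was 1097 RPKM for B2m, 293 for H2-K1 and 179 for H2-D1, against 75.4 for Tapbp, 21.9 for Psmb8, 15.9 for Tap2, 14.4 for Tap1, 8.32 for Psmb10, 7.98 for Nlrc5 and 4.90 for Psmb9. B2m was thus above the sum of H2-K1 and H2-D1 in median level per length. That order rests on the length used, which joins all annotated exons of a gene (860 bases for B2m, 2938 for H2-K1 and 2579 for H2-D1). In CPM the medians were 943.6 for B2m, 861.0 for H2-K1 and 461.3 for H2-D1, so B2m was not above their sum. Tapbp, the chaperone, stood above Tap1 and Tap2 in median, and Tap1 and Tap2 had overlapping ranges over the tumors (5.76 to 23.5 and 12.7 to 27.0 RPKM).

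H2-K1 was 861, 169 and 890.5 CPM in the primary untreated tumors, 1004, 489 and 1146 in the primary stavudine tumors, 519, 1209 and 1330.0 in the recurrences after 17-DMAG alone, 704 and 227 in those with 17-DMAG plus stavudine, and 514 and 392 in the glands. Every group of tumors held a low and a high library, so all 4 groups overlapped. H2-D1 was 461, 104 and 461.5, then 494, 278 and 588.5, then 318, 607 and 665.5 CPM in the first 3 tumor groups in that order, 438 and 151 in the last, and 317 and 290.2 in the glands. B2m, the shared light chain encoded on another chromosome, was 823, 171.5 and 1075, then 988.5, 627 and 1116, then 602, 1066 and 1279 CPM, with 944 and 223 in the last tumor group and 685 and 629.8 in the glands. The same libraries were lowest for all 3 chains, namely primary untreated replicate 2 and recurrent 17-DMAG plus stavudine replicate 2.

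**Figure D1:**
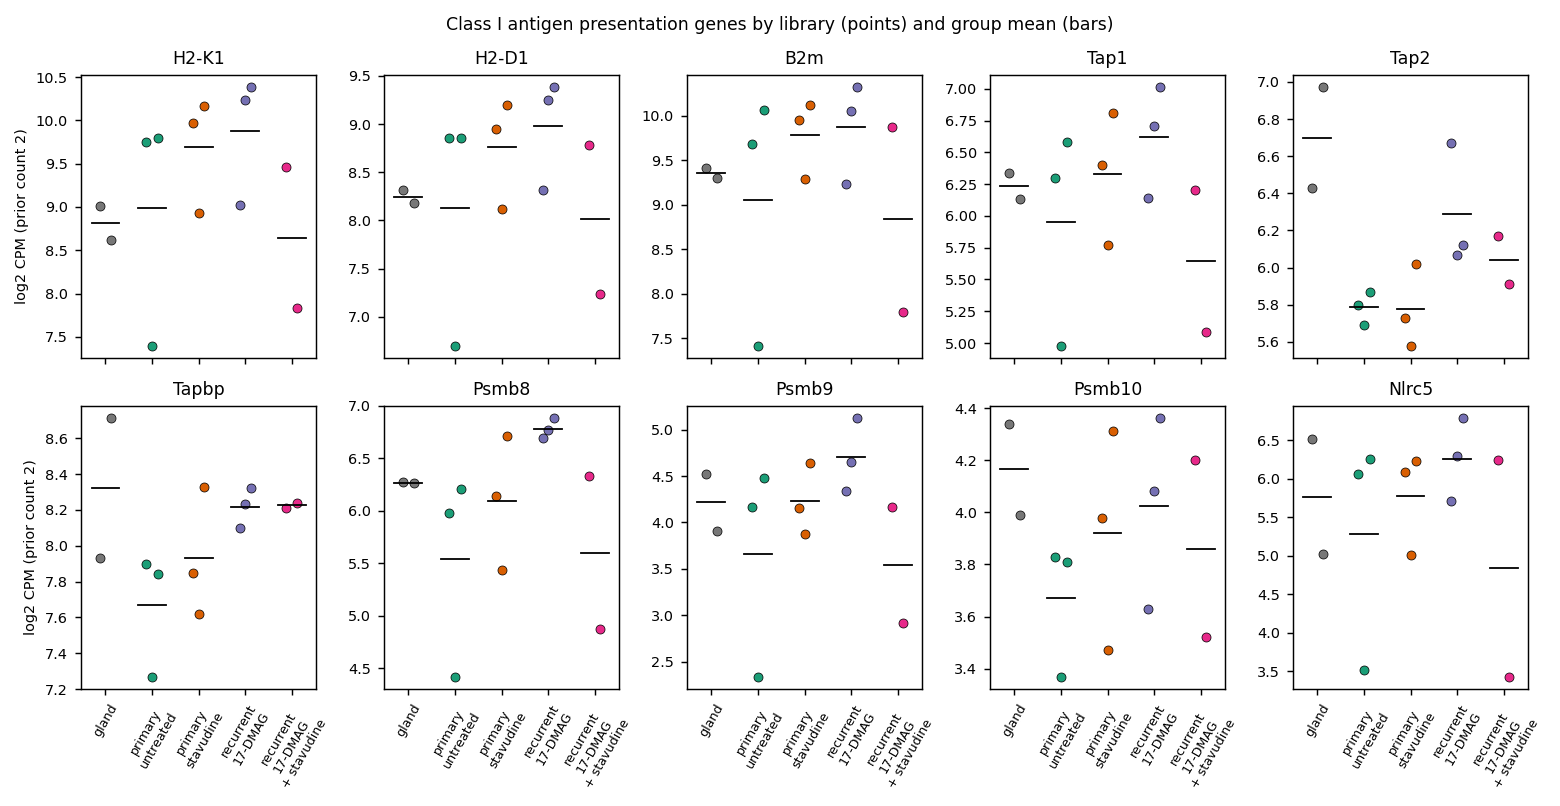
Log2 CPM (vertical axis, prior count 2) of the 10 class I genes in each library (points) by group (horizontal axis), with the group mean as a bar. In the panels of H2-K1, H2-D1, B2m, Tap1, Psmb8, Psmb9 and Nlrc5 a single primary untreated tumor and a single recurrent 17-DMAG plus stavudine tumor lie below all other tumors, and in the panels of Tap2 and Tapbp they do not both do so.

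Nlrc5, the transactivator, showed the widest range. It was 66.6, 11.5 and 76.2 CPM in the primary untreated tumors, 67.8, 32.2 and 75.2 in the primary stavudine tumors, 52.2, 78.4 and 110.0 in the recurrences after 17-DMAG alone, and 75.6 and 10.7 in those with 17-DMAG plus stavudine. Gland values were 91.0 and 32.4 CPM. The highest tumor was 10.2 times the lowest, and the third-lowest tumor, primary stavudine replicate 2, was 2.81 times the second-lowest.

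Among the transport and loading genes, Tap1 shared its pair of lowest libraries with the chains, whereas Tap2 and Tapbp shared only primary untreated replicate 2. Tap1 was 78.7, 31.5 and 95.9, then 84.6, 54.4 and 112.5, then 70.7, 104.9 and 129 CPM in the first 3 tumor groups, 73.5 and 34.1 in the last, and 80.9 and 69.9 in the glands. Tap2, the partner of Tap1 in the transporter, was 55.8, 51.7 and 58.6 CPM in the primary untreated tumors, 52.9, 47.9 and 64.9 in the primary stavudine tumors, 102.0, 67.3 and 69.7 in the recurrences after 17-DMAG alone and 71.8 and 60.0 in those with 17-DMAG plus stavudine. It was 85.9 and 125 CPM in the glands, so a single tumor, recurrent 17-DMAG replicate 1, reached the range of the glands. Tapbp was 239, 154 and 229, then 230.3, 196.5 and 323, then 273, 301 and 319 CPM, with 296 and 303 in the last tumor group and 245 and 418 in the glands. The tumor lowest in Nlrc5, recurrent 17-DMAG plus stavudine replicate 2, was thus above the tumor median in Tapbp and lay at that median in Tap2.

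The immunoproteasome subunits split in the same manner. Psmb8 was 63.1, 21.3 and 74.1, then 70.4, 43.5 and 104.5, then 103, 109 and 118 CPM in the first 3 tumor groups, 80.6 and 29.2 in the last, and 76.9 and 76.4 in the glands. Psmb9 was 17.9, 5.01 and 22.2, then 17.9, 14.7 and 24.9, then 20.1, 25.1 and 34.7, with 17.9 and 7.52 in the last tumor group and 22.8 and 15.0 in the glands. Psmb10 varied least, from 10.3 CPM in primary untreated replicate 2 to 20.5 in recurrent 17-DMAG replicate 3, and the glands had 20.3 and 15.9. For Psmb10 the 3 lowest tumors, at 10.3, 11.1 and 11.4 CPM, lay close together and included both of the tumors that were lowest for Psmb8 and Psmb9.

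Set against its constitutive counterpart per length, Psmb8 was 0.403 times Psmb5 in primary untreated replicate 2 and 0.544 times in recurrent 17-DMAG plus stavudine replicate 2, and between 1.07 and 2.76 times in the other 9 tumors. Psmb9 was 0.0435 and 0.0711 times Psmb6 in these libraries and 0.125 to 0.288 times in the other 9. Psmb10 was 0.274 and 0.334 times Psmb7 there, within the range of 0.236 to 0.559 of the other 9. The size of these ratios depends on the exon lengths used, while their order over the tumors does not. Over the 11 tumors Psmb5 ran from 11.7 to 15.9 RPKM, Psmb6 from 28.9 to 35.4 and Psmb7 from 19.2 to 30.6, each a smaller fold from lowest to highest than that of Psmb8 or Psmb9.

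Over the 11 tumors, the SD of log2 CPM was 1.14 for Nlrc5, 0.98 for H2-K1, 0.97 for B2m, 0.86 for H2-D1, 0.81 for Psmb8, 0.80 for Psmb9 and 0.66 for Tap1, against 0.37 for the median of the 16870 genes tested in the tumors. It was 0.35 for Psmb10, 0.33 for Tapbp and 0.30 for Tap2. Genes whose mean level lay within the range of the 10 had a median SD of 0.23, and all 10 were above that value. The named pair of tumors was the lowest pair for 7 of the 10 genes, and for 4.13% of all genes tested. These tumors were singled out after the values had been seen, belong to different groups and are not a group of the study, so no test was made of them.

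Other lists, read in the same libraries, were low there or not as follows. Interferon-induced guanylate-binding proteins and chemokines had a mean log2 CPM 1.51 below the tumor median in primary untreated replicate 2 and 1.12 below it in recurrent 17-DMAG plus stavudine replicate 2, and the other 9 tumors lay between 0.41 below and 0.58 above. T cell markers were 0.74 and 0.79 below the tumor median in these libraries, and their summed level was 5.28 and 5.10 CPM, against 7.32 to 12.4 CPM in the other 9. Pan-leukocyte markers were 0.13 below and 0.26 above the tumor median, macrophage markers 0.03 and 0.55 above it, and the constitutive proteasome list 0.14 below it and at it. The part of T cells in the class I levels was not tested. Skeletal muscle markers summed to 1.24 CPM in the first of these libraries and 1571 CPM in the second. The latter was the highest of the 11 tumors in muscle markers and the lowest in luminal epithelial markers (mean log2 CPM 6.89), and the part of tissue mixture in its class I levels was not tested.

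**Figure D2:**
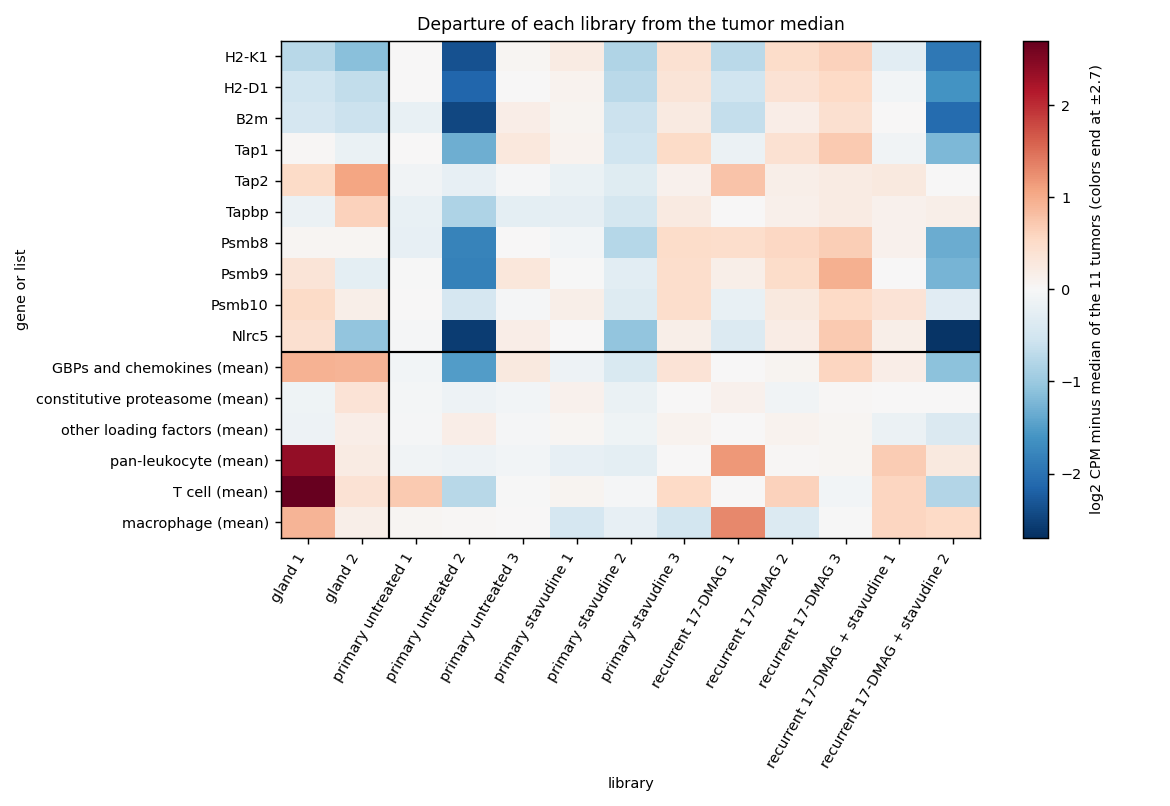
Difference of log2 CPM from the median of the 11 tumors (color) for the 10 class I genes and the means of 6 gene lists (rows) in each of 13 libraries (columns). The dark blue cells of the chains, Psmb8, Psmb9 and Nlrc5 fall in primary untreated replicate 2 and recurrent 17-DMAG plus stavudine replicate 2, where the guanylate-binding protein and chemokine list was 1.51 and 1.12 below the median and the constitutive proteasome list was within 0.14 of it.

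To ask how far the genes varied together, 55 relations are given over the 11 tumors: 45 pairs among the 10 genes, and each gene against the mean of 10 pan-leukocyte markers. Pearson's r and Spearman's rho of log2 CPM were each tested by a two-sided permutation test and adjusted by Benjamini and Hochberg over a family of 65. Of the 55, 31 passed for r and 33 for rho. Since the tumors low in class I could carry such relations alone, r was computed again without the 2 tumors farthest from the median of the first-named measure. With H2-K1, H2-D1, B2m, Tap1, Psmb8 or Psmb9 first, these were primary untreated replicate 2 and recurrent 17-DMAG plus stavudine replicate 2. With Tap2, Tapbp, Psmb10 or the pan-leukocyte mean first, at least 1 of these tumors stayed in. It was also computed on deviations from the group means with an exact permutation within groups.

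Of the 45 pairs, 30 passed for r, 24 without the 2 farthest tumors and 35 within groups. How many pairs of other genes would pass was not counted, so no background share is given. The pairs that failed over all 11 tumors each held Tap2 or Tapbp, and these genes were set aside after the values had been seen. All 28 pairs of the other 8 genes passed (r = 0.794 to 0.995, rho = 0.791 to 1.0, largest adjusted permutation p = 0.00348). Without the 2 farthest tumors r was 0.534 to 0.985 and 22 of the 28 passed the exact permutation test, and on deviations from the group means r was 0.803 to 0.998 and all 28 passed. B2m and Nlrc5 gave r = 0.978 and rho = 0.900 (adjusted permutation p = 0.000171 and 0.00201), with r = 0.885 without the 2 farthest tumors and 0.987 within groups. Tap1 and Psmb9, neighbours that start in opposite directions, gave r = 0.970 and rho = 0.900 (adjusted permutation p = 0.00013 and 0.00201), with r = 0.925 and 0.969 in the same order. These neighbours overlap by 212 bases, so reads included in or lost from either count could affect these values. H2-K1 and H2-D1 gave r = 0.995 and rho = 1.0 (adjusted permutation p = 0.00013 and 0.000162), a value that shared reads could raise, with r = 0.985 and 0.998.

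The 8 pairs of Tapbp with genes other than Tap2 gave r = 0.497 to 0.716, of which 2 passed, with 0 passing without the 2 farthest tumors and 7 within groups. For Tap2, none of its 9 pairs passed for r (0.209 to 0.607), 2 passed for rho and none passed within groups. Without the 2 farthest tumors, here recurrent 17-DMAG replicate 1 and primary stavudine replicate 2, its pairs with Tapbp (r = 0.823) and Psmb10 (r = 0.748) passed. With Tap1, its partner in the transporter, r was 0.322 and rho 0.373 (adjusted permutation p = 0.407 and 0.302), and r was 0.238 within groups. For that pair Tap1 was the first-named measure, so primary untreated replicate 2 and recurrent 17-DMAG plus stavudine replicate 2 were left out, and r was then 0.163. The pair was not computed without recurrent 17-DMAG replicate 1, the highest tumor in Tap2. With the pan-leukocyte markers Tap2 gave r = 0.902 and rho = 0.936 (adjusted permutation p = 0.000283 and 0.000433) and r = 0.921 within groups (adjusted exact permutation p = 0.00519). Without recurrent 17-DMAG replicate 1 and recurrent 17-DMAG plus stavudine replicate 1, the tumors with most leukocyte transcripts, r was 0.715 and the adjusted exact permutation p was 0.0539, so the relation with leukocyte markers rested in part on these tumors. That the correlation of Tap2 with leukocyte markers exceeds that of the other 9 genes was not tested.

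The other 9 genes gave r between -0.109 and 0.416 with the pan-leukocyte mean, and none passed. Tapbp came nearest to Tap2, with r = 0.416 and rho = 0.645 (adjusted permutation p = 0.262 and 0.0562), and r = 0.700 without the same 2 tumors (adjusted exact permutation p = 0.0595) but -0.027 within groups. For B2m, r was -0.037 and rho 0.045 (adjusted permutation p = 0.947 and 0.902), with r = -0.175 without the 2 farthest tumors and -0.027 within groups.

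**Figure D3:**
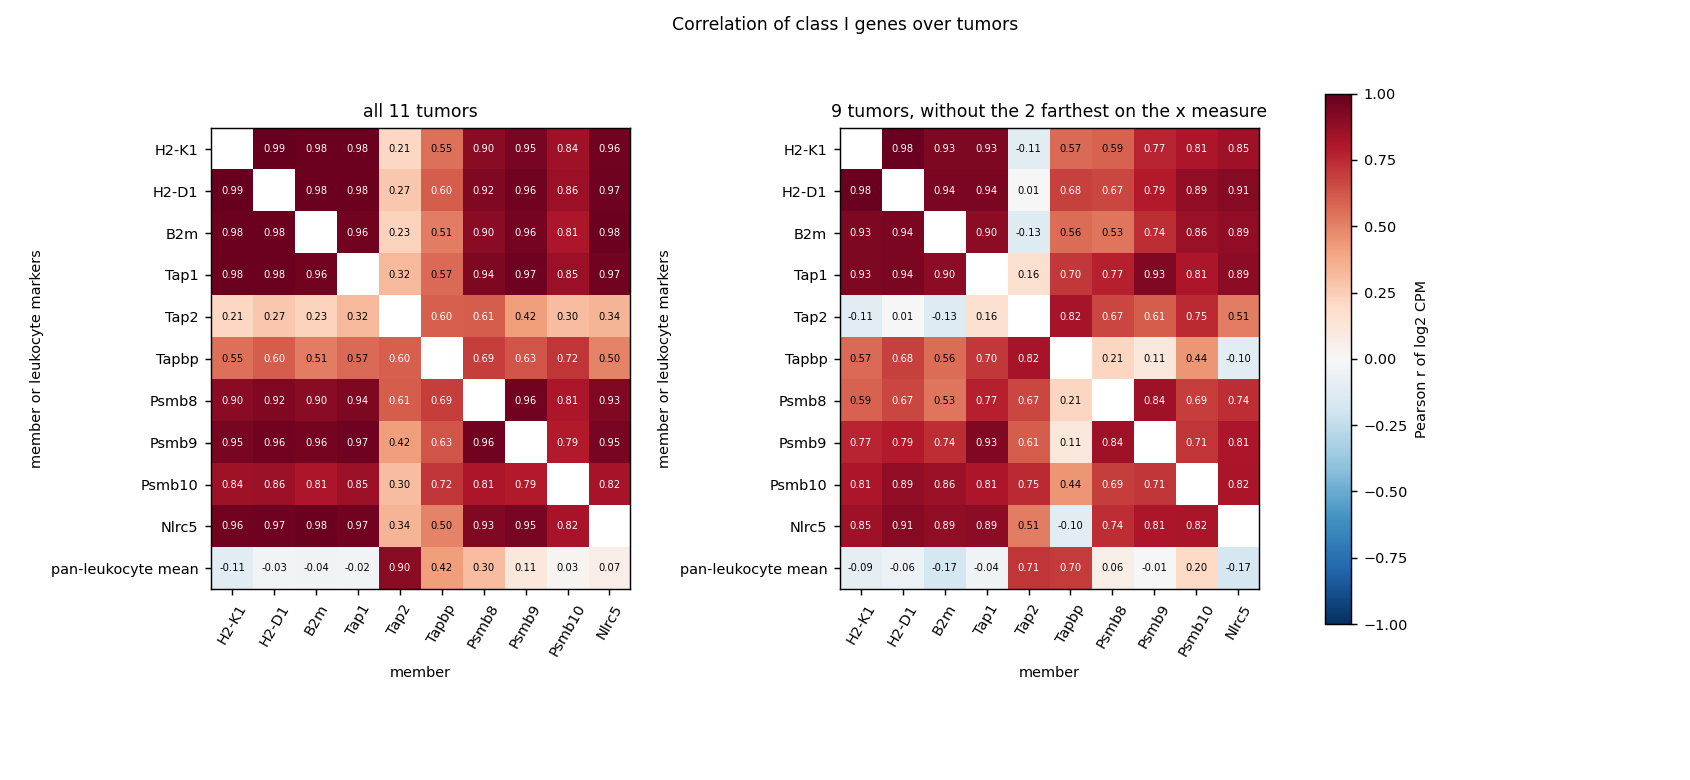
Pearson r of log2 CPM between the 10 class I genes (columns) and the same genes and the pan-leukocyte mean (rows), over 11 tumors on the left and without the 2 tumors farthest from the median of the first-named measure on the right. The row and column of Tap2 are pale on the left (0.209 to 0.607), and the pan-leukocyte row is dark only at Tap2 there (0.902).

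**Figure D4:**
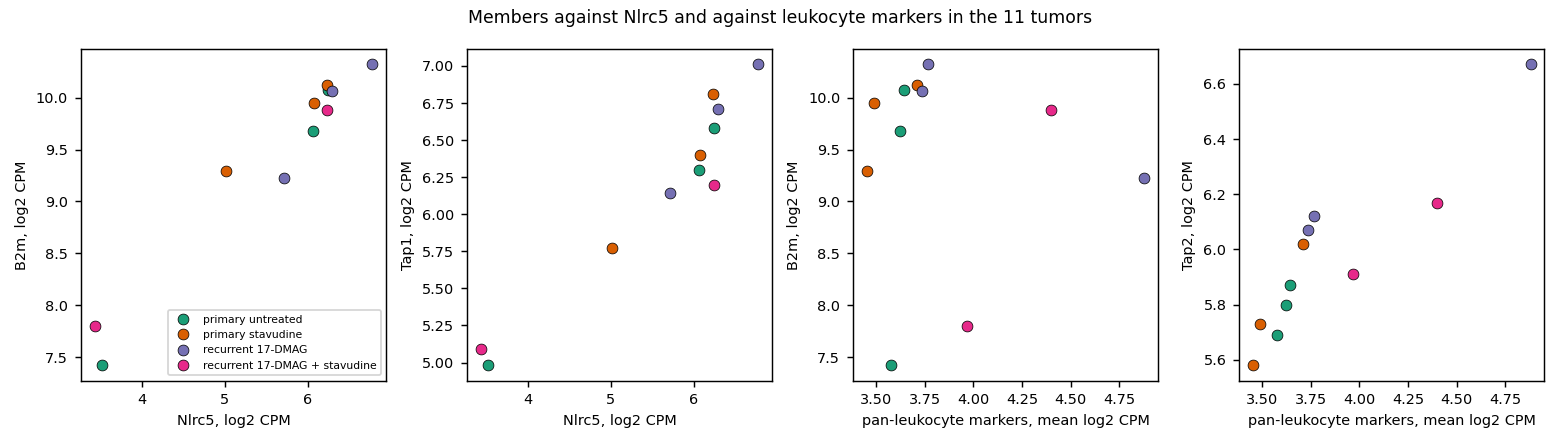
Log2 CPM of B2m and Tap1 against Nlrc5, and of B2m and Tap2 against the mean log2 CPM of pan-leukocyte markers, in the 11 tumors colored by group. B2m rises with Nlrc5 (r = 0.978) and shows no relation to the leukocyte markers (r = -0.037), while Tap2 rises with the markers (r = 0.902).

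The genes outside the 10 whose pattern was most like their mean standardized level, among 12682 genes whose log2 CPM averaged 1 or more, are given as a description. They were Parp14 (r = 0.98), Ifi47 (0.97), H2-Q4, Gbp2, Gbp4 and H2-Q1 (0.96 each), and Lgals3bp, Gbp3 and Gbp9 (0.95 each), with n = 11 tumors. Gbp2, Gbp3, Gbp4 and Gbp9 are interferon-induced GTPases, and H2-Q4 and H2-Q1 are further heavy chain genes whose reads may be shared with H2-K1 and H2-D1. Parp14 was 41.6 CPM in primary untreated replicate 2 and 51.6 in recurrent 17-DMAG plus stavudine replicate 2, and reached 148.5 CPM in other tumors. The median r was 0.89 for the 10 candidate genes of the guanylate-binding protein and chemokine list, 0.79 for 11 other class I heavy chains, 0.29 for 5 class II genes, 0.28 for 8 constitutive proteasome genes, 0.12 for 10 pan-leukocyte markers and -0.01 for all candidates. The interferon genes themselves were near the limit of detection. Ifng had a count in 5 of 13 libraries, with at most 6 counts, and Ifnb1 in 1 library, with 2 counts.

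Whether tumors differed from normal gland was asked first for all 4 tumor groups, weighted equally, against the glands. Tap2 was the single gene called, in edgeR's quasi-likelihood test with Benjamini-Hochberg adjustment over 17135 genes, and it was lower in tumors by 0.74 on the log2 scale (log2 fold change -0.74, SE 0.18, adjusted p = 0.0292). Of all genes tested, 10.4% were called in this comparison and 8.81% were called lower, so 1 of 10 is near the background. At an unadjusted p under 0.05 there was also 1 of the 10 genes, against 29.6% of all genes. Tapbp (-0.35, SE 0.23, adjusted p = 0.328 by edgeR) and Psmb10 (-0.28, SE 0.26, adjusted p = 0.489 by edgeR) came next. The call of Tap2 rested on the glands that were compared. It was lost without gland 2, with a log2 fold change of -0.36 and an adjusted p of 0.513 by edgeR, and also without primary stavudine replicate 1 (-0.71, adjusted p = 0.0519 by edgeR) or recurrent 17-DMAG plus stavudine replicate 2 (-0.70, adjusted p = 0.0566 by edgeR).

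Against the same glands, the primary untreated tumors alone gave 0 calls among the 10 genes by edgeR and by limma voom and 1, Tap2, by DESeq2, with 2 of 10 at an unadjusted p under 0.05, where 2.11% of all genes were called and 24.5% had such a p. Tap2 was -0.93 (log2 fold change, SE 0.22, adjusted p = 0.0579 by edgeR), Tapbp -0.68 (SE 0.27, adjusted p = 0.166) and Psmb10 -0.50 (SE 0.31, adjusted p = 0.336). Tap2, Tapbp, Psmb8 and Psmb10 were below both glands in every primary untreated tumor, as were 20.4% of all genes. Without gland 1, the gland rich in lymphocyte transcripts, Tap2 (-1.14, adjusted p = 0.0115) and Tapbp (-0.98, adjusted p = 0.0418) were called by edgeR, and without recurrent 17-DMAG replicate 1 Tap2 was (-0.93, adjusted p = 0.0257).

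Related genes, from lists chosen by role, were set beside these values. In all tumors against glands, 3 of 16 other class I heavy chains were called by edgeR, all lower (H2-M2, H2-Q1 and H2-T24, median of the list -0.15), and 0 of 7 other loading and trimming factors (4 at an unadjusted p under 0.05, median -0.09, smallest adjusted p 0.0516 for the aminopeptidase gene Lnpep) and 0 of 8 constitutive proteasome and activator genes (2 at an unadjusted p under 0.05, median -0.17, smallest adjusted p 0.126 for the activator Psme2). Of 23 regulators of class I transcription 2 were called lower, near the share over all genes, namely Ifngr1, an interferon γ receptor chain, and Irf8 (median -0.11). Of 13 interferon-induced genes 4 were called lower, led by the chemokine Cxcl9 (median -0.98), and of 6 class II genes 4 were, led by Cd74, the invariant chain (median -1.67). The median over all genes was -0.02, with 8.81% of them called lower and 29.6% at an unadjusted p under 0.05. With the primary untreated tumors alone, 1 regulator, Ifngr1, and the same 4 class II genes were called, and 0 in the heavy chain, loading, constitutive proteasome and interferon-induced lists (4, 4, 1 and 5 at an unadjusted p under 0.05). Among all genes 2.11% were called there and 24.5% had such a p. Pan-leukocyte markers (5 of 10 called lower, median -1.66) and T cell markers (8 of 9 called lower, median -3.47) differed in the same direction, and their part in the values of these lists was not tested.

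**Figure D5:**
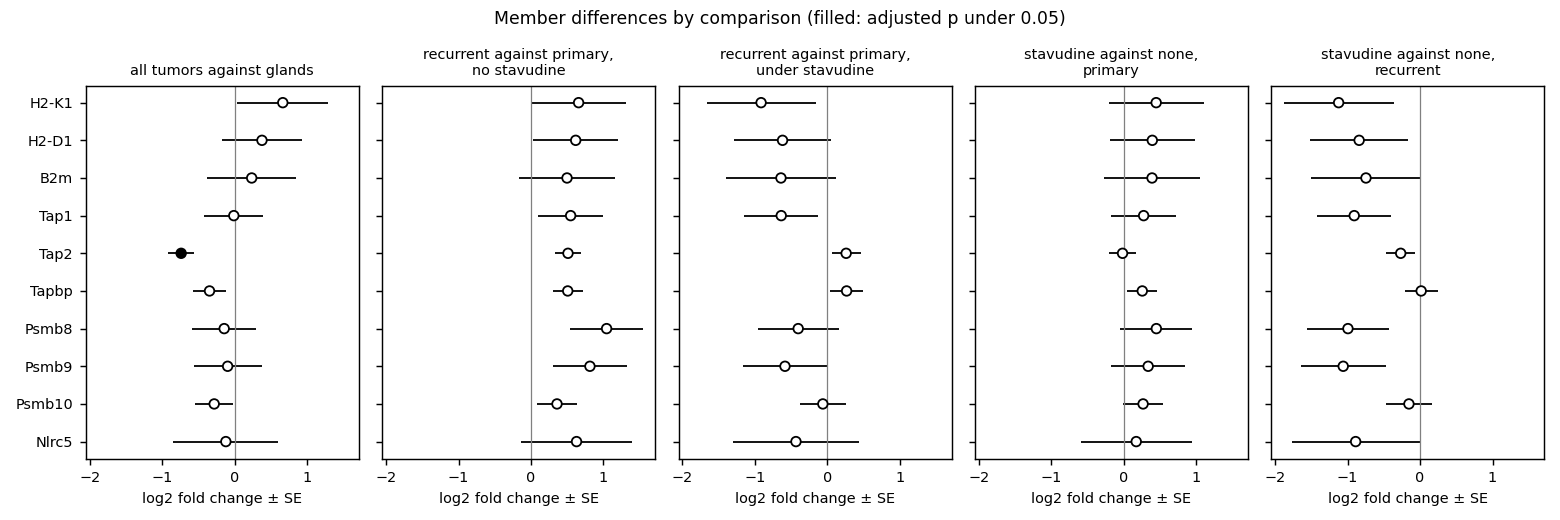
Log2 fold change (horizontal axis, bars 1 SE derived from the test statistic) of the 10 class I genes (rows) in 5 comparisons by edgeR, filled where the adjusted p was under 0.05. Only Tap2 in all tumors against glands (-0.74) is filled, and the estimates of recurrent against primary tumors lie above 0 for all 10 genes without stavudine and below 0 for 8 of 10 under stavudine.

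Recurrence after 17-DMAG was examined first without stavudine. All 10 genes had higher estimates in the recurrent 17-DMAG than in the primary untreated tumors (median log2 fold change 0.58, where 49.4% of all genes had an estimate above 0), but 0 of 10 were called by edgeR, DESeq2 or limma voom, and 2 of 10 had an unadjusted p under 0.05. No gene in the table was called in this comparison by edgeR (0%), and 9.69% had an unadjusted p under 0.05. Most of the 10 genes varied together over the tumors, so the signs of their estimates, here and below, are not separate observations. Tap2 gave 0.51 (SE 0.18), Tapbp 0.51 (SE 0.21) and Psmb8 1.04 (SE 0.50), with adjusted p = 0.509, 0.509 and 0.512 by edgeR. These were also the genes for which every recurrent tumor was above every primary untreated tumor, 3 of 10, where 7.65% of all genes were higher without overlap. Psmb8 in the recurrent tumors spanned only 103 to 118 CPM, whereas its highest primary untreated tumor had 74.1 CPM. Without primary untreated replicate 2 the median over the 10 genes was 0.23, and the estimates ran from 0.05 for B2m to 0.68 for Psmb8, still all above 0. Without primary untreated replicate 3 the median was 0.93. Pan-leukocyte markers also had higher estimates in the recurrent tumors (9 of 10, median 0.76, 0 called, 4 at an unadjusted p under 0.05), and so had class II genes (5 of 6, median 1.13, 0 called, 4 at an unadjusted p under 0.05). The part of leukocytes in the class I estimates was not tested.

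Within the recurrent 17-DMAG group the members did not move as 1 block. Replicate 1 was the lowest of its group for 9 of the 10 genes, among them H2-K1, B2m and Nlrc5 at 519, 602 and 52.2 CPM, and the highest of all 11 tumors for Tap2, at 102.0 CPM. That library had pan-leukocyte markers 1.17 and macrophage markers 1.30 above the tumor median on the log2 scale, whereas replicates 2 and 3 were within 0.06 of it for the first list. Replicate 3 was the highest tumor for 8 of the 10 genes, the exceptions being Tap2 and Tapbp.

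Under stavudine, recurrent against primary tumors gave estimates below 0 for 8 of 10 genes (median -0.51, where 48.2% of all genes were below 0), the exceptions being Tap2 (0.26, SE 0.20, adjusted p = 0.646 by edgeR) and Tapbp (0.27, SE 0.23, adjusted p = 0.679 by edgeR). Tap1 was -0.64 (SE 0.51, adjusted p = 0.657 by edgeR) and H2-K1 -0.91 (SE 0.75, adjusted p = 0.665 by edgeR). Of the 10 genes, 0 were called by edgeR, DESeq2 or limma voom and 0 had an unadjusted p under 0.05, where edgeR called 0% of all genes and 10.1% had such a p. The groups overlapped for all 10 genes, whereas 35.3% of all genes did not overlap. The direction depended on 1 library. Without recurrent 17-DMAG plus stavudine replicate 2, which leaves a lone tumor assumed to vary like those of the other groups, the median was 0.09 and 6 of 10 estimates were above 0, Nlrc5 moving from -0.43 to 0.37. Without replicate 1 of that group the median was -1.34.

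Averaged over both water arms, recurrent against primary tumors gave 0 calls of 10 by edgeR, DESeq2 or limma voom, with 2 of 10 at an unadjusted p under 0.05, where edgeR called 0% of all genes and 13.6% had such a p. Tap2 (0.39, SE 0.13, adjusted p = 0.314 by edgeR) and Tapbp (0.39, SE 0.15, adjusted p = 0.337 by edgeR) had the smallest p, followed by Psmb8 (0.32, SE 0.37, adjusted p = 0.707 by edgeR). Tap2 and Tapbp were the members that gave estimates above 0 in both arms, and 7 of 10 pan-leukocyte markers had an unadjusted p under 0.05 in the same comparison, all 10 with estimates above 0 (median 0.68, 0 called). This comparison holds the same libraries as the separate comparisons of each arm.

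Stavudine in primary tumors left the genes without a detectable difference. The estimates were above 0 for 9 of 10 (median 0.31, where 44.9% of all genes were above 0), 0 were called by edgeR, DESeq2 or limma voom and 0 had an unadjusted p under 0.05, where edgeR called 0% of all genes and 3.76% had such a p. Tapbp was 0.26 (SE 0.21), Psmb10 0.27 (SE 0.28) and Psmb8 0.45 (SE 0.50), each with an adjusted p of 1 by edgeR. Without primary untreated replicate 2 the median was -0.03, with 4 of 10 above 0, and without primary untreated replicate 3 it was 0.63. Both groups held a tumor that was the lowest of its group for all 10 genes, primary untreated replicate 2 and primary stavudine replicate 2.

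In recurrent tumors, those with stavudine had estimates below those without it for 9 of 10 genes (median -0.87, where 50.6% of all genes were below 0), and 0 were called by edgeR, DESeq2 or limma voom and 0 had an unadjusted p under 0.05, where edgeR called 0% of all genes and 7.84% had such a p. Psmb9 was -1.06 (SE 0.59, adjusted p = 0.736 by edgeR), Tap1 -0.91 (SE 0.51, adjusted p = 0.741 by edgeR) and Psmb8 -0.996 (SE 0.57, adjusted p = 0.747 by edgeR). Psmb8 and Psmb9 were lower in both stavudine tumors than in all 3 others, as were 10.5% of all genes. The stavudine tumors were themselves far apart, with H2-K1 at 704 and 227 CPM and Nlrc5 at 75.6 and 10.7 CPM. Without replicate 2 the median was -0.22, and without replicate 1 it was -1.83. All 12 interferon-induced genes tested had estimates below 0 here as well (median -0.52, 0 called and 0 at an unadjusted p under 0.05, Gbp4 with the smallest adjusted p of 0.657), whereas of 10 pan-leukocyte markers 7 had (median -0.07, 0 called and 0 at an unadjusted p under 0.05). Of 7 other loading and trimming factors all were below 0 (median -0.30, 0 called, 2 at an unadjusted p under 0.05), led by Pdia3, an oxidoreductase of the loading complex (-0.58, SE 0.16, adjusted p = 0.377 by edgeR).

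The test of whether recurrence differed between the water arms is the interaction. All 10 genes had estimates below 0 (median -1.16, where 47.5% of all genes were below 0), 0 were called by edgeR, DESeq2 or limma voom, and 0 had an unadjusted p under 0.05, where edgeR called 0% of all genes and 7.84% had such a p. Psmb8 was -1.45 (SE 0.75, adjusted p = 0.683 by edgeR), Psmb9 -1.40 (SE 0.78, adjusted p = 0.704 by edgeR) and Tap1 -1.18 (SE 0.68, adjusted p = 0.707 by edgeR). The SEs, which reached 1.16 for Nlrc5, show how little these groups of 2 and 3 tumors could resolve. Without recurrent 17-DMAG plus stavudine replicate 2 the median was -0.58, without replicate 1 of that group it was -2.21, and without primary untreated replicate 2 it was -0.77.

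In the other lists, 0 genes were called by edgeR in any of the 6 comparisons between tumor groups. For other class I heavy chains the median log2 fold change was 0.36 in recurrent against primary tumors without stavudine, -0.63 under stavudine, 0.20 for stavudine in primary tumors and -0.81 for stavudine in recurrent tumors. For the constitutive proteasome list the medians in the same order were 0.05, 0.05, 0.05 and -0.09, and for the regulators of class I transcription 0.12, 0.09, -0.01 and -0.05. These comparisons share libraries with one another, so agreement of sign between lists or comparisons is not independent.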

How the data were processed

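RNA-seq was analysed for 11 tumors and 2 mammary glands, grouped by the labels. The authors prepared stranded, ribosomal RNA-depleted libraries, used bcl2fastq 2.20, aligned reads to GRCm38 (mm10) with STAR and counted them with featureCounts (Subread 1.6.2); the strand and multimapper settings were not given in the sources used here. The deposited values were raw counts per gene. The replicates were individual tumors or glands; where animals were shared was not stated, so p-values measure the spread between these samples. Depth limits precision for genes with few counts. A floor of 3 counts was set but was not applied in the tests or to the printed counts, and it covers counting error only.

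Counts were tested with edgeR 4.0.16 in R 4.3.3 (filterByExpr, TMM, robust quasi-likelihood, Benjamini-Hochberg over all genes, threshold 0.05), glands on 13 libraries (17135 genes) and tumor groups on 11 (16870 genes), two-sided. The edgeR code was checked on simulated counts for recurrent against primary tumors without stavudine, with large changes only. That check did not cover the correlations. Each SE was derived as the absolute log2 fold change divided by the square root of the F statistic of the quasi-likelihood test. Log2 CPM used a prior count of 2, and correlations used 100000 permutations and were adjusted over 65 relations, 10 of which are not reported here. RPKM used the joined length of all annotated exons of a gene, so ranks and ratios between genes depend on that length. Alternatives were DESeq2 1.42.0, limma voom 3.58.1, RLE normalization, no filter, compared groups only, removal of milk, muscle and adipocyte genes, a replicate block and leaving out each library. Per comparison, the 3 genes with the smallest p were named. The members and lists were chosen with earlier results of these data known. In other lists, the called genes (at most 3) or the gene with the smallest p were named.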

Additional observations from a re-analysis of the deposited data

How the results depend on the processing

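Counts of the 10 class I genes called were the same under every alternative run for the 6 comparisons between tumor groups, 0 each, including each library left out. For primary untreated tumors against glands, the count was 0 as reported, 1 with DESeq2, and 0 to 2 when libraries were left out in turn. For all tumors against glands it was 1, and 0 to 1 when libraries were left out. The values gave no sign that replicate numbers pair the samples, but pairing was not tested. Deviations of same-numbered tumors of different groups correlated between -0.295 and 0.222 over 15 pairs of tumors. Those of differently numbered tumors correlated between -0.366 and 0.369. The fit with the replicate block gave 0 genes called for all tumors against glands, and changed no other count. Of the 3 estimates with the smallest p in each comparison, those of Tapbp in all tumors against glands (-0.64 to 0.18 when libraries were left out, 0.18 without gland replicate 2) and Psmb8 in recurrent against primary tumors over both arms (-0.13 to 0.60, -0.13 without recurrent 17-DMAG plus stavudine replicate 1) changed sign, and of other named estimates Nlrc5 under stavudine did (0.37 without recurrent 17-DMAG plus stavudine replicate 2); the cause was not tested. Of 55 correlations, 31 passed as reported, 36 on deviations from the group means and 24 without the 2 farthest tumors. Over all genes, primary untreated tumors against glands gave 361 calls by edgeR, 2352 by DESeq2, 4 with the replicate block and 0 on the compared groups only, and all tumors against glands 1785 by edgeR, 3242 by DESeq2, 371 with the replicate block, 535 without gland 2 and 4255 without gland 1. DESeq2 called 61 in recurrent against primary tumors without stavudine, 331 under stavudine, 419 over both arms, 17 and 277 for stavudine in primary and recurrent tumors and 189 for the interaction, where edgeR and limma voom called 0. With single libraries left out, edgeR called 0 to 3381 genes in primary untreated tumors against glands and 0 to 141 in the comparisons between tumor groups. Group sizes of 2 or 3 limit what could be resolved. Depth limits genes with few counts, such as the interferon genes, whereas the lowest count among the 10 class I genes was 246 (Psmb9 in primary untreated replicate 2).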
